A study of Homo sapiens with 12 samples.

Results

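The genes described here carry out DNA replication and mark S phase. They were the 41 rows whose gene symbol is on a list of origin licensing, helicase, polymerase, clamp, nucleotide supply and chromatin assembly genes, and all 41 were present among the 56104 genes of both count tables. They were measured in HCT116, a human colorectal carcinoma cell line kept under 15 passages, with genotype Ctrl or PPM1G KO. PPM1G is a nuclear protein phosphatase. Nascent RNA was taken by 4sU-seq: 4-thiouridine (4sU, 500 µM) given for 10 min enters newly made RNA, which is then biotinylated and captured on beads. Steady-state RNA was taken by RNA-seq. Each assay held 3 Ctrl and 3 KO libraries, 12 in all. No drug or other treatment is named. The Ctrl libraries carry Ctrl_KO in their titles, and the sources used here do not say what control construct they received, whether the KO cells are 1 clone or how the gene was cut.

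Replication starts when the origin recognition complex, CDC6 and CDT1 load the MCM2-7 helicase onto DNA in G1. CDC45 and the GINS complex then switch the helicase on, and the polymerases, the sliding clamp PCNA and its loader copy the strands. Many of these genes share transcription by E2F factors, which the retinoblastoma protein holds back until cells commit to S phase, so their mRNAs rise together in dividing cells. In RNA from a whole culture, fewer cells in S phase and less RNA per cell cannot be told apart.

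Library depth was 79403238 to 101884166 gene counts for the nascent and 30962756 to 42479828 for the RNA-seq libraries, where 3 counts equal 0.0302 to 0.0365 and 0.0740 to 0.0973 CPM, the normalised count scaled to library size. PPM1G itself fell in the KO libraries of both assays, from 235 to 271 CPM in Ctrl to 98.9 to 144 CPM in 4sU-seq and from 293 to 331 CPM to 95.0 to 98.0 CPM in RNA-seq. The epithelial markers EPCAM, KRT8, KRT18, KRT19, CDH1 and CDX2 were detected in all 12 libraries, with 7 epithelial markers summing to 1215 to 2062 CPM in the 4sU-seq and 2599 to 3187 CPM in the RNA-seq libraries. VIL1, the remaining marker, gave 3.36 to 4.33 CPM in 4sU-seq. In RNA-seq it gave 0.0740 to 0.282 CPM and was too low to be tested. The 4 leukocyte markers summed to at most 0.437 CPM in any library. The 3 endothelial markers summed to 5.85 to 6.55 CPM in Ctrl and 12.6 to 12.8 CPM in KO in 4sU-seq, with at most 0.683 CPM in any RNA-seq library. The 4 fibroblast markers summed to 4.98 to 5.92 and 9.69 to 13.7 CPM in Ctrl and KO of 4sU-seq, with 4.28 to 6.28 and 9.76 to 11.1 CPM in RNA-seq, nearly all of it COL1A1, with PDGFRA at 0 in every 4sU-seq library. The part of these marker counts in the results on replication genes was not tested. Among the 4sU-seq libraries, KO replicate 2 stood apart. The chi-square of its counts against KO replicates 1 and 3 was 303 and 400 per degree of freedom, while KO replicates 1 and 3 differed by 31.4 and Ctrl pairs by 62.0 to 92.9. Nascent counts and medians over all members are therefore given with and without it, and single-gene values without it for some members only. In RNA-seq, KO replicates 1 and 2 lay closer (1.71 per degree of freedom) than the other pairs of their group (10.5 and 10.9), though not within sampling noise, and were kept apart.

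The promoters show the sequence feature most often tied to this gene group. RefSeq promoters (GRCh38.p14, 250 bases before to 50 after the start, first listed start of each gene) were matched for 37 members; none was matched for MCM4, MCM5, GINS4 and POLD3. The E2F words TTTCCCGC, TTTGGCGC, TTTGCCGC and TTTCGCGC, searched on both strands, occurred in 21 of the 37 (56.8%), against 4.88% of the 11689 matched promoters of genes tested in 4sU-seq and 3.33% of all 27305. Some of these words overlap each other on opposite strands, as in MCM6. CCAAT, the NF-Y box, occurred in 22 of the 37 (59.5%, against 35.8% of promoters of genes tested). The CHR words TTTGAA and TTCGAA, known from mitotic genes, occurred in 2 (5.41%, against 11.7%). The 160 bases up to the start are shown 5′ to 3′ on the gene's strand for 5 members with E2F words, which stand in capitals. MCM10, whose nascent change had the smallest p of all members and whose window holds no such word, is shown beside them.
CDT1 (chr16:88803629-88803788, plus strand): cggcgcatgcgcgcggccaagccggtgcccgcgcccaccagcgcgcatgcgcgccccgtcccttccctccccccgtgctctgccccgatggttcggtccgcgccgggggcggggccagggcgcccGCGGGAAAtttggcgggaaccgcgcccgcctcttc
TYMS (chr18:657493-657652, plus strand): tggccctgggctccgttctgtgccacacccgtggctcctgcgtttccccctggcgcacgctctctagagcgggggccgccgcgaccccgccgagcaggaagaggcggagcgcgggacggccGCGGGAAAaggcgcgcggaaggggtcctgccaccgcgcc
POLA2 (chr11:65261802-65261961, plus strand): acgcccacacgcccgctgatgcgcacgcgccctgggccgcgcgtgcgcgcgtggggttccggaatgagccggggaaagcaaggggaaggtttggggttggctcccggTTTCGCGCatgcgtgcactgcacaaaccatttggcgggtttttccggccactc
MCM6 (chr2:135876444-135876603, minus strand): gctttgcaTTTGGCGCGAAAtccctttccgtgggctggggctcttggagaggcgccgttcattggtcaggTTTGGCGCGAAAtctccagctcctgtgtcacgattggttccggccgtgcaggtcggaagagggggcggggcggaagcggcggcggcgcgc
E2F1 (chr20:33686386-33686545, minus strand): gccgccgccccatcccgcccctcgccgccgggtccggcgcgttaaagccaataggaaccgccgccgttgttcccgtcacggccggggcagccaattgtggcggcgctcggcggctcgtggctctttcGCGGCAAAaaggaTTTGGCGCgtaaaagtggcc
MCM10 (chr10:13161398-13161557, plus strand): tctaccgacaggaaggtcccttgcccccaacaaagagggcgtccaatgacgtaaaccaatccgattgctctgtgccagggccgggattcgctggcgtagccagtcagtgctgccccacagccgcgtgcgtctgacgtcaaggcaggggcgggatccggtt
The word begins at position −35 in CDT1, −39 in TYMS and −53 in POLA2, counted from the first transcribed base. MCM6 holds the stretch TTTGGCGCGAAA at 2 places, each with 2 overlapping matches on opposite strands, and E2F1, which encodes an E2F factor, holds 2. Holding 1 of these exact words did not go with a larger change. Only exact matches were counted, so promoters without one may hold other forms of the site. The median log2 change of nascent RNA was −0.45 over the 21 members with a word and −0.55 over the 16 without, and in RNA-seq −0.19 and −0.27. These are descriptions of the members, with no test.

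Nascent RNA was lower in KO than in Ctrl across the group. In 4sU-seq, 19 of 41 members were called lower and 0 higher by edgeR's quasi-likelihood test (Benjamini-Hochberg adjusted p below 0.05 over 21236 genes), against 6.98% of all genes tested called lower and 19.6% in either direction. All 41 log2 changes (KO over Ctrl) were below 0, as were 46.1% of all genes tested, and they ran from −0.93 for ORC1 to −0.19 for RFC3. Their median was −0.50, beside 0.05 over all genes. In 29 members every KO library lay below every Ctrl library, a pattern seen in 17.8% of genes, and 12 overlapped. The plot of every library shows where the overlap lies: KO replicates 1 and 3 lay below all Ctrl libraries in 38 members, and KO replicate 2 reached the lowest Ctrl library or passed it in 9 (CDT1, MCM2, MCM4, MCM5, MCM7, POLE, POLD1, RFC5 and E2F1). It lay above KO replicates 1 and 3 in 32 members and below both in POLA1, POLE2, POLD3, RFC3 and DTL. The shares of all genes with these patterns of single KO libraries were not taken. The counts therefore describe the libraries and are not read as particular to the members. Without KO replicate 2, 37 members were called lower (28.4% of genes tested), with a median of −0.77. Leaving out any other library took most calls away: 1, 2 and 7 members were called lower without Ctrl replicates 1, 2 and 3 (1.23, 1.46 and 2.36% of genes tested), and 3 and 9 without KO replicates 1 and 3 (1.56 and 3.43% of genes). All 41 changes were below 0 in each of these fits. With both libraries numbered 2 left out, 37 members were called lower (5364 of 21648 genes tested), with a median of −0.67. Deviations of Ctrl and KO replicate 2 from their group means correlated at 0.88, so leaving out KO replicate 2 alone unbalances the groups. POLA1, POLE2, RFC3 and FEN1 were the 4 not called without KO replicate 2. Without it POLA1 moved towards 0, to −0.12, as did POLE2 (−0.34), POLD3 (−0.58), RFC3 (−0.02) and DTL (−0.62). All other members moved further below 0. Scaling the libraries by ERCC spike-in RNA, whose share of counts ran from 0.0230 to 0.0560% in 4sU-seq, left 0 members called (44 genes of 21236 were called lower), a member median of −0.33 and an all-gene median of 0.27, so the distance between members and all genes was −0.61 in place of −0.55. Scaling moves all genes by nearly the same amount, so this distance is no test of it.

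**Figure D1:**
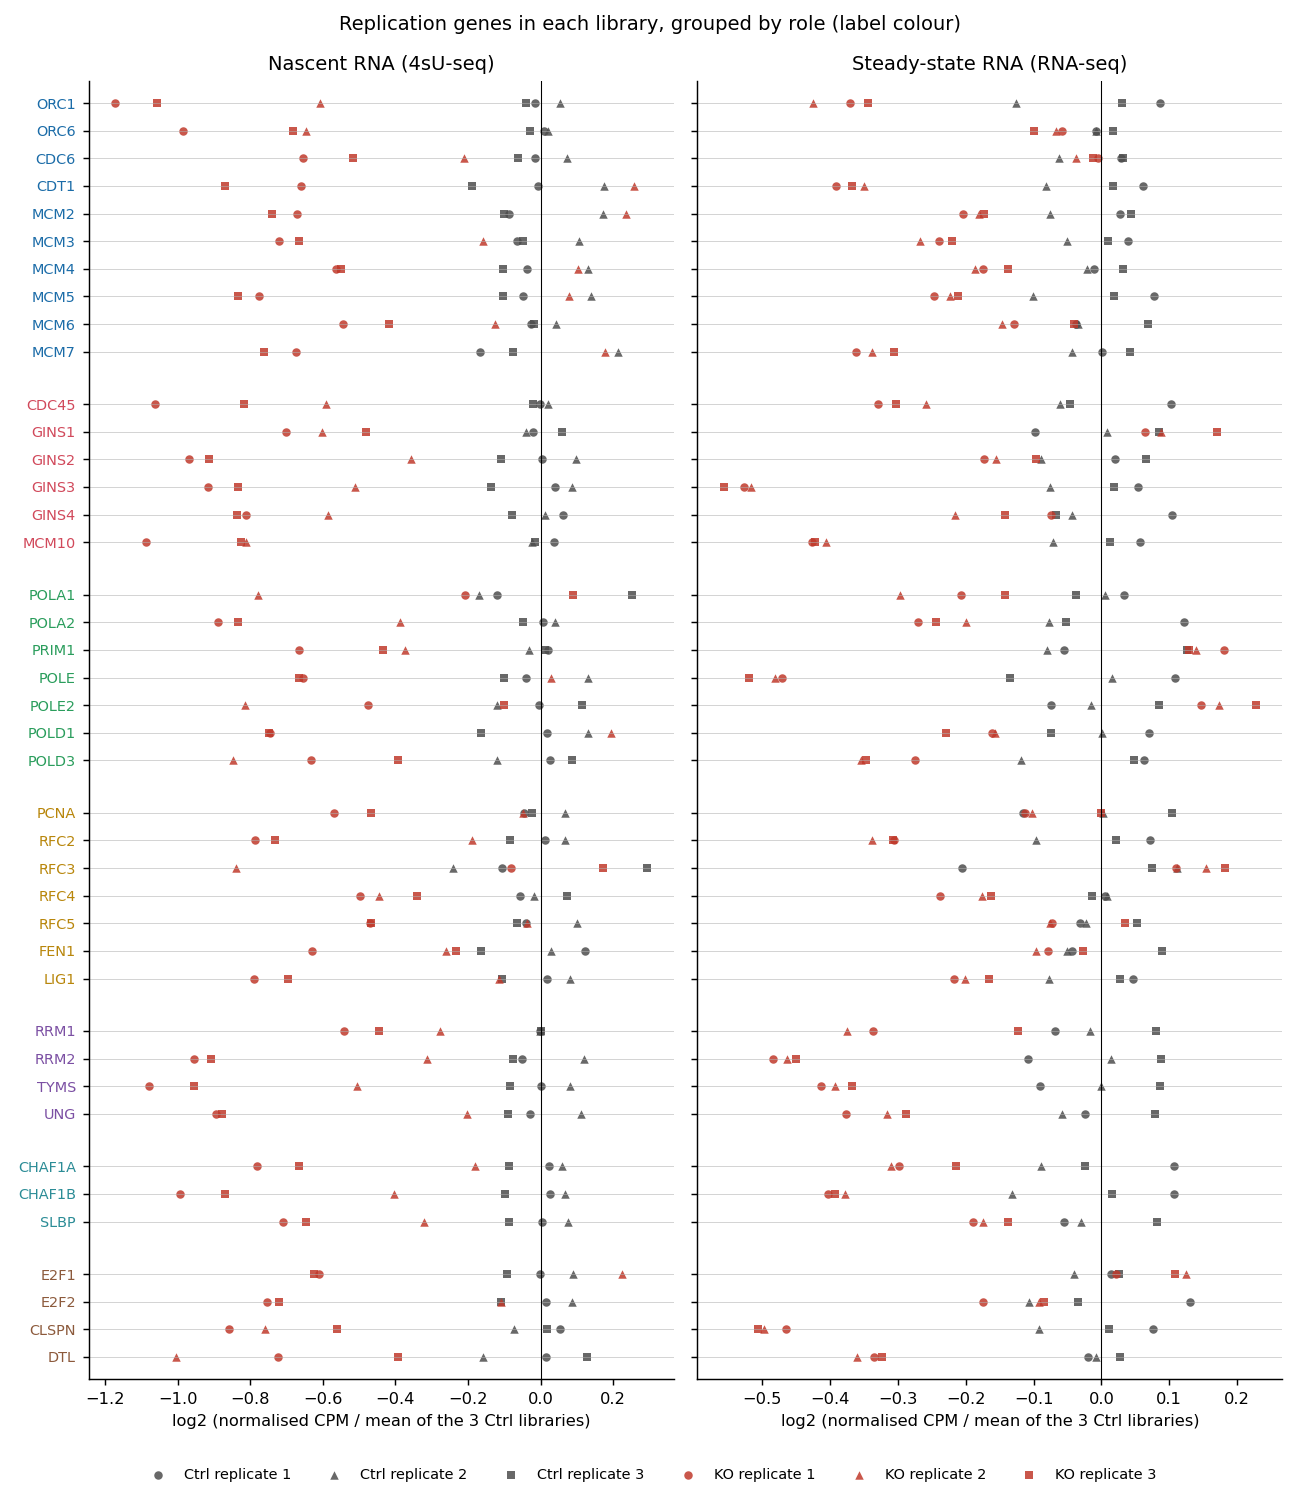
Each point is the normalised CPM of 1 library over the mean of the 3 Ctrl libraries of its assay, on a log2 scale (x axis), for the 41 members grouped by role (y axis), with 4sU-seq on the left and RNA-seq on the right. The x axes differ in range. KO replicates 1 and 3 (red circles and squares) lie below all Ctrl points in 38 members in 4sU-seq, while KO replicate 2 (red triangles) lies nearer to Ctrl in most. The shares of all genes with these patterns were not taken.

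Steady-state RNA was lower too, by less. In RNA-seq 27 members were called lower (26.8% of 20415 genes tested) and 1, POLE2, higher (21.5% of genes), where 48.4% of genes were called in either direction. The log2 changes ran from −0.53 for GINS3 to 0.18 for POLE2, with 36 below 0 (49.9% of all genes) and a median of −0.21, beside 0.00 over all genes. Every KO library lay below every Ctrl library in 31 members (29.9% of genes), PRIM1 and POLE2 were separated upward, and 8 overlapped. The split depended on scaling. With library size alone the median of all genes moved from 0.00 to 0.19 and that of the members to −0.03, and 12 members were called lower and 8 higher, where 13.8% of genes were called lower and 36.4% higher. With ERCC scaling 11 were called lower and 2 higher, where 13.4% of genes were called lower and 21.4% higher. Relative to the median of all genes, the member median was −0.22 under all 3 scalings. A change of scaling moves all genes by nearly the same amount, so this distance could hardly change. It does not show which scaling is right. With KO replicates 1 and 2 summed into 1 library, 23 members were called lower and 0 higher (4759 of 20883 genes lower). The calls of MCM2, MCM4, POLE2, LIG1 and SLBP were lost in that fit. For RNA-seq the labels do not say whether the libraries came from separate cultures, so its p-values measure the spread between these libraries, which may be technical.

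Set side by side, 14 members were called lower in both assays, beside 5.58% of the 15863 genes tested in both. Another 5 were called lower in 4sU-seq and not in RNA-seq (ORC6, GINS1, GINS2, GINS4 and PRIM1), 13 in RNA-seq and not in 4sU-seq, and 9 in neither. The matching shares of all genes were not taken, so these counts are not read as results about the members. In each assay alone, 6.98% of genes tested were called lower in 4sU-seq and 26.8% in RNA-seq. The difference itself was tested over the 12 libraries, by the interaction term. The nascent change was below the steady-state change in 39 of 41 members (46.9% of genes had a negative difference), with CDT1 (0.02 ± 0.30) and POLE (0.09 ± 0.21) the exceptions, and the median difference was −0.30, beside 0.03 over all genes. The difference passed the test in 4 members, ORC6, GINS1, GINS4 and PRIM1, all lower in nascent RNA (1.25% of genes were called in that direction, 2.5% in either). No member was called without 4sU-seq Ctrl replicate 1 or 3 (0.264 and 0.333% of genes called lower), without RNA-seq KO replicate 1, 2 or 3 (0.393, 0.231 and 0.391%) or with ERCC scaling, and 29 were called without 4sU-seq KO replicate 2 (12.4% of genes).

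**Figure D2:**
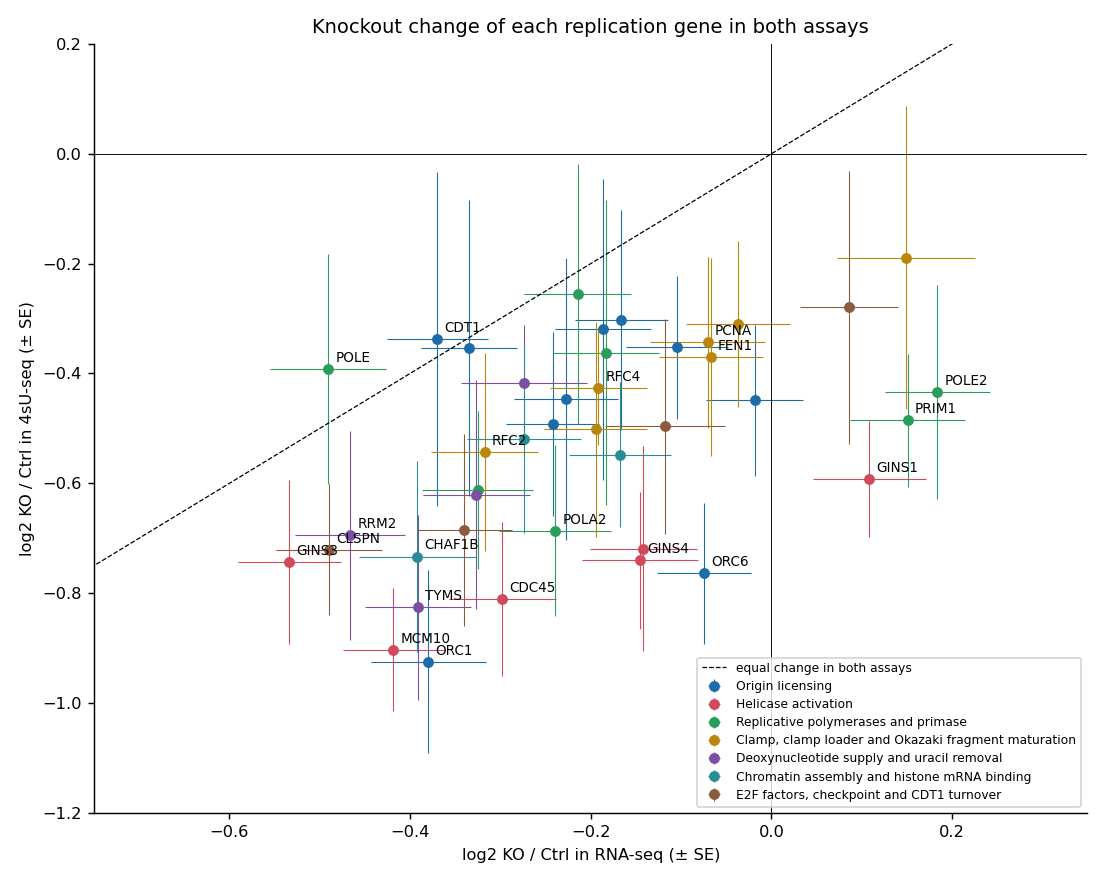
Log2 change of KO over Ctrl in RNA-seq (x axis) against that in 4sU-seq (y axis) for the 41 members, with standard errors and role by colour; the dashed line marks equal change. All points lie below 0 on the y axis, 39 lie below the line, and the 4 members called for the difference (ORC6, GINS1, GINS4 and PRIM1) lie at −0.15 to 0.15 in RNA-seq.

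Of the origin licensing genes, ORC1, ORC6, CDC6, CDT1 and the 6 MCM2-7 subunits, 2 were called lower in 4sU-seq and 7 in RNA-seq. Beside this role and those below, 6.98% of all genes tested were called lower in 4sU-seq and 26.8% in RNA-seq. ORC1, the ATPase subunit of the origin recognition complex, gave 114, 119 and 112 CPM in the nascent Ctrl libraries and 51.0, 75.4 and 55.2 CPM in KO (log2 −0.93 ± 0.17, edgeR adjusted p = 0.0128), and fell in RNA-seq as well (−0.38 ± 0.06, adjusted p = 0.000259). ORC6, the smallest subunit of the same complex, gave 63.8, 64.2 and 62.1 CPM in nascent Ctrl RNA and 32.0, 40.5 and 39.4 CPM in KO (−0.76 ± 0.13, edgeR adjusted p = 0.0101). Its RNA-seq values were 63.9, 64.0 and 65.1 CPM in Ctrl and 61.8, 61.4 and 60.0 CPM in KO (−0.07 ± 0.05, adjusted p = 0.258). The KO libraries of ORC6 lay below Ctrl in both assays, by a wide gap in one and a narrow gap in the other.

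CDT1, the licensing factor that is destroyed in S phase, was called in RNA-seq and not in 4sU-seq. Its changes were of like size, with a difference between assays of 0.02 ± 0.30. It gave 212, 192 and 206 CPM in RNA-seq Ctrl and 155, 160 and 158 CPM in KO (−0.37 ± 0.06, edgeR adjusted p = 0.000105). In 4sU-seq it gave 91.5, 104 and 80.8 CPM in Ctrl and 58.3, 110 and 50.3 CPM in KO (−0.34 ± 0.30, adjusted p = 0.486). KO replicate 2 was the highest of its 6 nascent libraries, and Ctrl replicate 2 was the highest of Ctrl. Without KO replicate 2 the change was −0.83 ± 0.13 (edgeR adjusted p = 0.00213). That fit unbalances the groups and called 28.4% of all genes tested lower, so it adds no support of its own. The value of CDT1 without both libraries numbered 2 is not given here. The MCM subunits had no nascent call either, though each fell more in nascent than in steady-state RNA, with no difference called. MCM2 to MCM7 changed by −0.30 to −0.49 in nascent RNA, none called, and by −0.10 to −0.34 in RNA-seq, where all but MCM6 were called and MCM7 fell most (−0.34 ± 0.05, edgeR adjusted p = 0.000153). MCM4 turned to 0.019 in RNA-seq with library size alone. Without KO replicate 2 all 6 were called in 4sU-seq, from −0.55 ± 0.09 for MCM6 to −0.87 ± 0.10 for MCM5, in the same unbalanced fit. CDC6, which loads the helicase together with CDT1, stood at −0.45 ± 0.14 (edgeR adjusted p = 0.0666) and −0.02 ± 0.05 (adjusted p = 0.806).

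The factors that switch the loaded helicase on were the one role in which every member was called lower in nascent RNA, 6 of 6, with a median of −0.74; in RNA-seq 3 of the 6 were called, with a median of −0.22. MCM10, which helps the helicase open the DNA (ENSG00000065328, hg38 chr10:13161554-13211104), gave 183, 175 and 176 CPM in nascent Ctrl RNA and 83.8, 101 and 100 CPM in KO (−0.90 ± 0.11, edgeR adjusted p = 0.00388), with all 3 KO libraries well below Ctrl. RNA-seq gave 139, 127 and 135 CPM in Ctrl and 99.4, 101 and 99.8 CPM in KO (−0.42 ± 0.06, adjusted p = 3.64e-05). CDC45, the helicase's partner subunit, fell by 0.81 ± 0.14 (edgeR adjusted p = 0.0111) in nascent and by 0.30 ± 0.06 (adjusted p = 0.000941) in steady-state RNA.

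The 4 GINS subunits form 1 complex in equal parts, yet their steady-state RNAs diverged. GINS3 gave 35.1, 32.1 and 34.3 CPM in RNA-seq Ctrl and 23.5, 23.7 and 23.0 CPM in KO (−0.53 ± 0.06, edgeR adjusted p = 5.45e-06). Its nascent values were 39.9, 41.3 and 35.4 CPM in Ctrl and 20.6, 27.3 and 21.8 CPM in KO (−0.74 ± 0.15, adjusted p = 0.0185). Its RNA-seq call was kept under all 16 alternatives, the single member's call of which that was true in either assay. GINS1 gave 119, 117 and 126 CPM in nascent Ctrl RNA and 74.2, 79.5 and 86.5 CPM in KO (−0.59 ± 0.11, edgeR adjusted p = 0.0122). Its RNA-seq values were 81.7, 87.9 and 92.7 CPM in Ctrl and 91.4, 92.9 and 98.4 CPM in KO, which overlap (0.11 ± 0.06, adjusted p = 0.172). The difference between assays was −0.70 ± 0.12 (edgeR adjusted p = 0.0161). GINS4 gave 19.9, 19.2 and 18.0 CPM in nascent Ctrl RNA and 10.9, 12.7 and 10.7 CPM in KO (−0.74 ± 0.12, edgeR adjusted p = 0.0102). Its RNA-seq values were 31.0, 28.0 and 27.5 CPM in Ctrl and 27.4, 24.8 and 26.1 CPM in KO (−0.15 ± 0.06, adjusted p = 0.0791), and its difference was −0.60 ± 0.13 (adjusted p = 0.0344). GINS2 lay between them, at −0.72 ± 0.19 (edgeR adjusted p = 0.0411) in nascent and −0.14 ± 0.06 (adjusted p = 0.0642) in steady-state RNA. Genes on the opposite strand cover 68.8% of the GINS4 span (GENCODE 29), and the strand setting of the counting is not given in the sources used here.

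**Figure D3:**
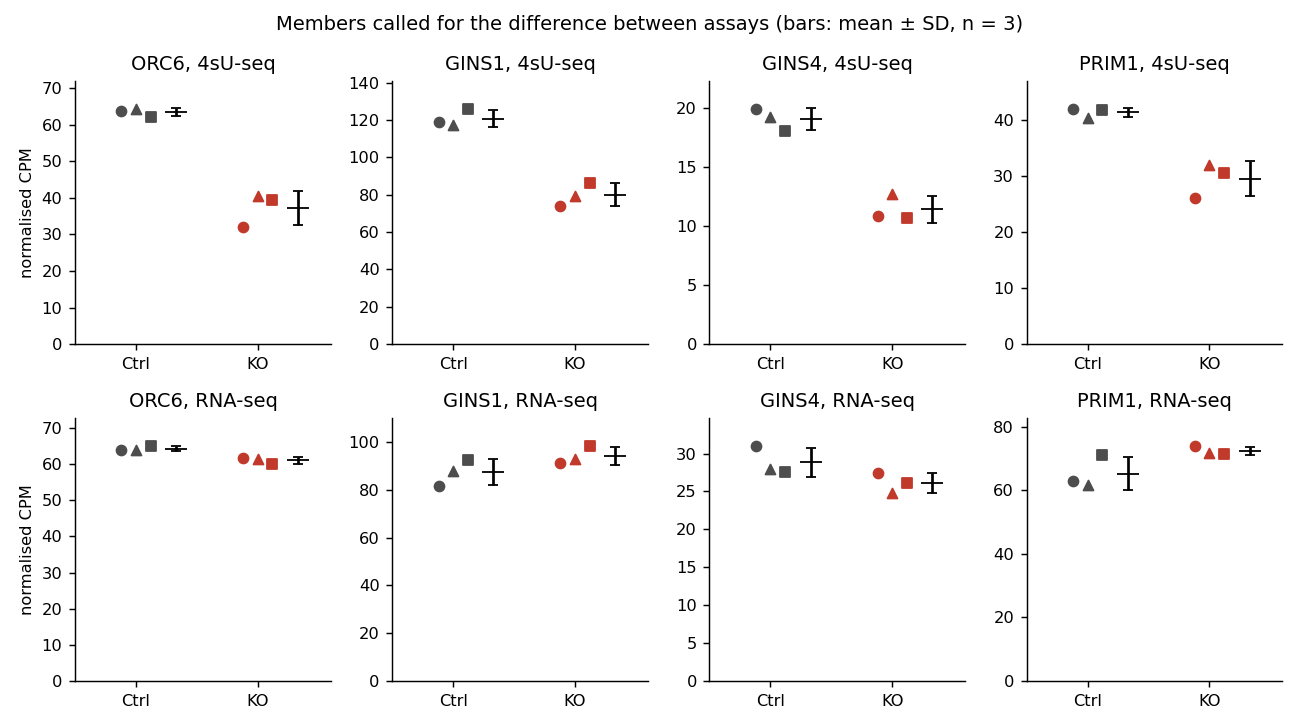
Normalised CPM (y axis, from 0) of the 4 members called for the difference between assays, in 4sU-seq (top) and RNA-seq (bottom), for Ctrl (grey) and KO (red) libraries; circles, triangles and squares are replicates 1, 2 and 3, and bars are mean ± SD of 3 libraries. In 4sU-seq each KO library lies well below each Ctrl library, as for GINS1 at 74.2 to 86.5 against 117 to 126 CPM, while in RNA-seq the groups lie close together or overlap.

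Among the polymerases and primase, 3 of 7 were called lower in 4sU-seq, and 5 lower and 1 higher in RNA-seq. PRIM1, the catalytic primase subunit, gave 42.0, 40.5 and 41.8 CPM in nascent Ctrl RNA and 26.1, 32.0 and 30.7 CPM in KO (−0.49 ± 0.12, edgeR adjusted p = 0.0361). In RNA-seq every KO library lay above every Ctrl library, at 73.9, 71.9 and 71.3 CPM against 62.8, 61.7 and 71.2 CPM, though Ctrl replicate 3 all but touched them (0.15 ± 0.06, adjusted p = 0.0662). The difference was −0.63 ± 0.12 (edgeR adjusted p = 0.026). POLE2, the second subunit of polymerase epsilon, showed a like pattern with more spread. It rose in RNA-seq from 43.2, 45.0 and 48.3 CPM to 50.4, 51.3 and 53.3 CPM (0.18 ± 0.06, edgeR adjusted p = 0.0182), a call that was lost without RNA-seq KO replicate 2 or 3 and with KO replicates 1 and 2 summed (adjusted p = 0.0559). Its nascent values were 64.7, 59.8 and 70.3 CPM in Ctrl and 46.7, 36.9 and 60.6 CPM in KO (−0.43 ± 0.19, adjusted p = 0.173).

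POLE, the catalytic subunit of the same polymerase, moved opposite to POLE2 in RNA-seq, from 229, 215 and 194 CPM to 153, 152 and 148 CPM (−0.49 ± 0.06, edgeR adjusted p = 3.19e-05). Its nascent libraries overlapped, at 157, 177 and 151 CPM in Ctrl and 103, 165 and 102 CPM in KO (−0.39 ± 0.21, adjusted p = 0.245). Without KO replicate 2 the nascent change of POLE was −0.73 ± 0.10 (edgeR adjusted p = 0.00119), in a fit that unbalances the groups and called 28.4% of genes lower. POLA2, the regulatory subunit of polymerase alpha, gave 137, 140 and 132 CPM in nascent Ctrl RNA and 73.4, 104 and 76.3 CPM in KO (−0.69 ± 0.16, edgeR adjusted p = 0.0268). In RNA-seq it gave 51.1, 44.5 and 45.3 CPM and 38.9, 40.9 and 39.6 CPM (−0.24 ± 0.06, adjusted p = 0.00587). An annotated gene on the same strand covers 99.6% of the POLA2 span and others cover 47.8% of PRIM1, so how reads were shared there is uncertain. POLD3, an accessory subunit of polymerase delta, was called in both assays like POLA2, at −0.61 ± 0.14 (edgeR adjusted p = 0.03) and −0.33 ± 0.06 (adjusted p = 0.00063).

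The clamp, its loader and the enzymes that mature Okazaki fragments had the medians nearest to 0, −0.37 and −0.07. Of these 7, 1 was called lower in 4sU-seq and 3 in RNA-seq. The nascent median is the value of FEN1, which had hardly any nascent signal, and that of the origin licensing genes lay close, at −0.40. RFC4, a subunit of the clamp loader, gave 80.9, 83.1 and 88.4 CPM in nascent Ctrl RNA and 59.6, 61.8 and 66.4 CPM in KO (−0.43 ± 0.10, edgeR adjusted p = 0.0338). The RNA-seq values were 78.4, 78.6 and 77.4 CPM and 66.2, 69.2 and 69.8 CPM (−0.19 ± 0.05, adjusted p = 0.00935). RFC2, another loader subunit, gave 123, 128 and 115 CPM in nascent Ctrl RNA and 70.5, 107 and 73.3 CPM in KO (−0.54 ± 0.18, edgeR adjusted p = 0.0828). Its RNA-seq values of 101, 90.2 and 97.9 CPM and 78.1, 76.3 and 78.0 CPM did not overlap (−0.32 ± 0.06, adjusted p = 0.000602). PCNA, the sliding clamp, had the highest RNA-seq level per exon length of any member, 192 ± 14.6 CPM per kb in Ctrl (SD, n = 3), and did not pass either test (−0.34 ± 0.16 and −0.07 ± 0.06). RRM2 (114 ± 7.81) and MCM7 (111 ± 3.29) came next in that order and lay within each other's spread, and GINS3 (6.63 ± 0.303) and GINS4 (5.27 ± 0.345) came last.

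FEN1, the flap endonuclease, had hardly any nascent signal. Its 4sU-seq libraries gave 0.594, 0.556 and 0.486 CPM in Ctrl and 0.352, 0.455 and 0.464 CPM in KO, against 165 to 188 CPM in RNA-seq, so its nascent value is not a reading of the gene's transcription on the same footing as the others. That value is nonetheless included in the member counts and medians given for 4sU-seq. FADS2, on the same strand, covers 92.6% of its span in GENCODE 29. The log2 ratio of nascent to steady-state level in Ctrl was −7.41 for FEN1, the lowest of the members, whose median was 0.09, beside 0.19 over all genes tested in both assays, with POLD3 highest at 1.61.

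All 4 genes of deoxynucleotide supply and uracil removal were called lower in RNA-seq, and 3 in 4sU-seq. TYMS, thymidylate synthase (ENSG00000176890, hg38 chr18:657604-673578), gave 143, 151 and 135 CPM in nascent Ctrl RNA and 67.7, 101 and 73.9 CPM in KO (−0.83 ± 0.17, edgeR adjusted p = 0.0193). RNA-seq gave 156, 166 and 176 CPM and 125, 126 and 128 CPM (−0.39 ± 0.06, adjusted p = 0.000102). RRM2, the S-phase subunit of ribonucleotide reductase, gave 564, 614 and 646 CPM in RNA-seq Ctrl and 435, 441 and 445 CPM in KO (−0.47 ± 0.06, edgeR adjusted p = 2.96e-05). In nascent RNA it gave 296, 333 and 290 CPM and 158, 247 and 163 CPM (−0.69 ± 0.19, adjusted p = 0.0474). RRM1, the large subunit of the same enzyme, fell by 0.42 ± 0.10 and 0.27 ± 0.07 (edgeR adjusted p = 0.0367 and 0.00532). UNG, which removes uracil from DNA, was called in RNA-seq (−0.33 ± 0.06, adjusted p = 0.000439) and not in 4sU-seq (−0.62 ± 0.21, adjusted p = 0.0863). The groups of TYMS and RRM2 did not overlap in either assay. An annotated gene on the same strand covers 81.0% of the RRM2 span.

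The chromatin assembly genes and SLBP were all called lower in RNA-seq and 2 of 3 in 4sU-seq. CHAF1B, a subunit of the CAF-1 histone chaperone, gave 118, 121 and 108 CPM in nascent Ctrl RNA and 58.0, 87.2 and 63.1 CPM in KO (−0.73 ± 0.17, edgeR adjusted p = 0.0305). In RNA-seq it gave 81.4, 69.0 and 76.3 CPM and 57.1, 58.1 and 57.6 CPM (−0.39 ± 0.06, adjusted p = 0.000215). CHAF1A, its partner, stood at −0.52 ± 0.17 (edgeR adjusted p = 0.0823) and −0.27 ± 0.06 (adjusted p = 0.00265). SLBP, which binds the stem-loop of histone mRNAs, fell by 0.55 ± 0.13 and 0.17 ± 0.06 (edgeR adjusted p = 0.0324 and 0.0245), the latter turning to 0.018 with library size alone.

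Of the E2F factors and S-phase checkpoint genes, CLSPN and DTL were called lower in both assays and E2F1 and E2F2 in neither. CLSPN, the adaptor claspin that carries the signal from stalled forks, gave 98.5, 90.3 and 96.3 CPM in nascent Ctrl RNA and 52.4, 56.1 and 64.4 CPM in KO (−0.72 ± 0.12, edgeR adjusted p = 0.00967). In RNA-seq it gave 122, 109 and 117 CPM and 83.8, 81.9 and 81.5 CPM (−0.49 ± 0.06, adjusted p = 1.61e-05). DTL, which directs the destruction of CDT1, fell by 0.69 ± 0.17 and 0.34 ± 0.05 (edgeR adjusted p = 0.0388 and 0.000136). E2F1 stood at −0.28 ± 0.25 (edgeR adjusted p = 0.481) and 0.09 ± 0.05 (adjusted p = 0.21), and without KO replicate 2 its nascent change was −0.69 ± 0.09 (adjusted p = 0.00127). The fit without that library unbalances the groups and called 28.4% of genes lower. E2F2 stood at −0.50 ± 0.20 and −0.12 ± 0.07, read from a gene ID with no coordinates in GENCODE 29.

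POLA1, the catalytic subunit of polymerase alpha, stood at −0.26 ± 0.24 in nascent RNA (edgeR adjusted p = 0.499) and fell by 0.21 ± 0.06 in RNA-seq (adjusted p = 0.00838). POLD1, the catalytic subunit of polymerase delta, stood at −0.36 ± 0.28 and −0.18 ± 0.06 (edgeR adjusted p = 0.412 and 0.0198), the latter at 0.0013 with library size alone. LIG1, the ligase that seals Okazaki fragments, stood at −0.50 ± 0.20 and −0.19 ± 0.06 (edgeR adjusted p = 0.126 and 0.0118). The loader subunits RFC3 (−0.19 ± 0.28 and 0.15 ± 0.08) and RFC5 (−0.31 ± 0.15 and −0.04 ± 0.06) passed neither test. Gene span did not order the nascent changes (Spearman rho −0.08 over 40 members with a span, 4.61 to 303 kb), but KO replicate 2 sat lower against KO replicates 1 and 3 in longer genes (rho −0.44). These correlations run across genes of the same libraries and carry no test.

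Other genes of the pathway were read from 3 lists. Beside them, 6.98% of all genes tested were called lower and 12.6% higher in 4sU-seq, and 26.8% and 21.5% in RNA-seq. Of 46 other replication genes, 10 of the 43 tested in 4sU-seq were called lower and 1 higher, with a median of −0.23, and in RNA-seq 28 were called lower and 5 higher (median −0.18). TICRR, the treslin factor that loads CDC45, fell by 0.89 ± 0.06 in RNA-seq (edgeR adjusted p = 7.38e-08), and DNA2, a nuclease of flap processing, by 0.79 ± 0.15 in nascent RNA (adjusted p = 0.0143). RRM2B, the p53-induced ribonucleotide reductase subunit, rose by 1.09 ± 0.20 and 0.86 ± 0.10 in the 2 assays (edgeR adjusted p = 0.0132 and 1.3e-05), while RRM2, its S-phase counterpart, fell. Of the E2F and RB network, 6 of 27 tested were called lower and 2 higher in 4sU-seq and 20 of 30 lower and 4 higher in RNA-seq, with medians of −0.38 and −0.29. CDC25A, the phosphatase that activates CDK2, fell by 1.01 ± 0.16 (edgeR adjusted p = 0.00933) and E2F7, a repressor of the family, by 0.93 ± 0.11 (adjusted p = 0.00297) in nascent RNA. TFDP2, a dimer partner of E2F factors, rose by 1.14 ± 0.21 and 0.80 ± 0.06 (edgeR adjusted p = 0.0132 and 1.91e-07).

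Genes of G2 and mitosis were lower as well. Of 31, 8 were called lower in 4sU-seq and 25 in RNA-seq, with 0 higher in either and medians of −0.49 and −0.38. Of all genes tested, 6.98% and 26.8% were called lower in these assays. AURKA, a mitotic kinase, fell by 0.96 ± 0.15 in nascent and 0.68 ± 0.06 in steady-state RNA (edgeR adjusted p = 0.00717 and 1.27e-06), and UBE2C, a ubiquitin-conjugating enzyme of mitotic exit, by 0.81 ± 0.06 in RNA-seq (adjusted p = 9.74e-08). For the difference between assays, the median was −0.30 for the replication members, −0.07 for the other replication genes, −0.03 for the E2F and RB network and −0.07 for the mitotic genes, with 4, 0, 2 and 0 genes called lower (1.25% of all genes tested). Whether these medians differ from each other was not tested.

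**Figure D4:**
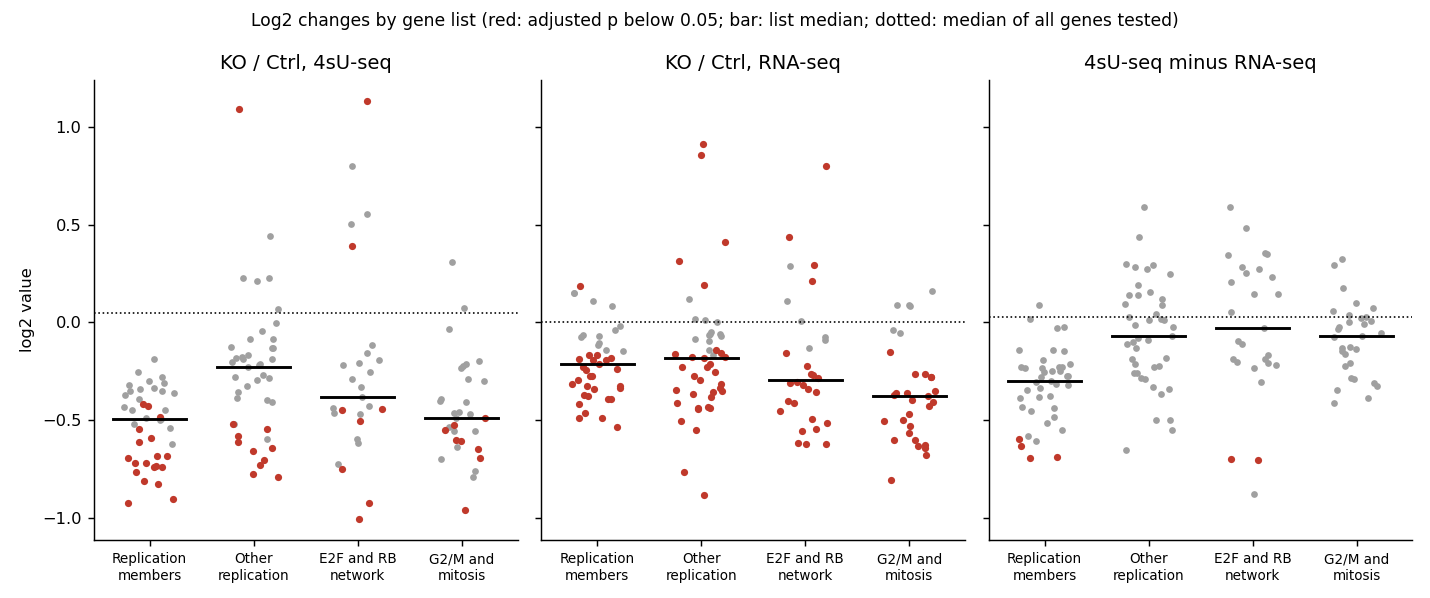
Log2 change of KO over Ctrl in 4sU-seq (left) and RNA-seq (middle) and their difference (right) for the tested genes of 4 lists, 1 point per gene (y axis, log2), red where called; bars are list medians and the dotted line is the median of all genes tested. The member medians lie at −0.50, −0.21 and −0.30.

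**Figure D5:**
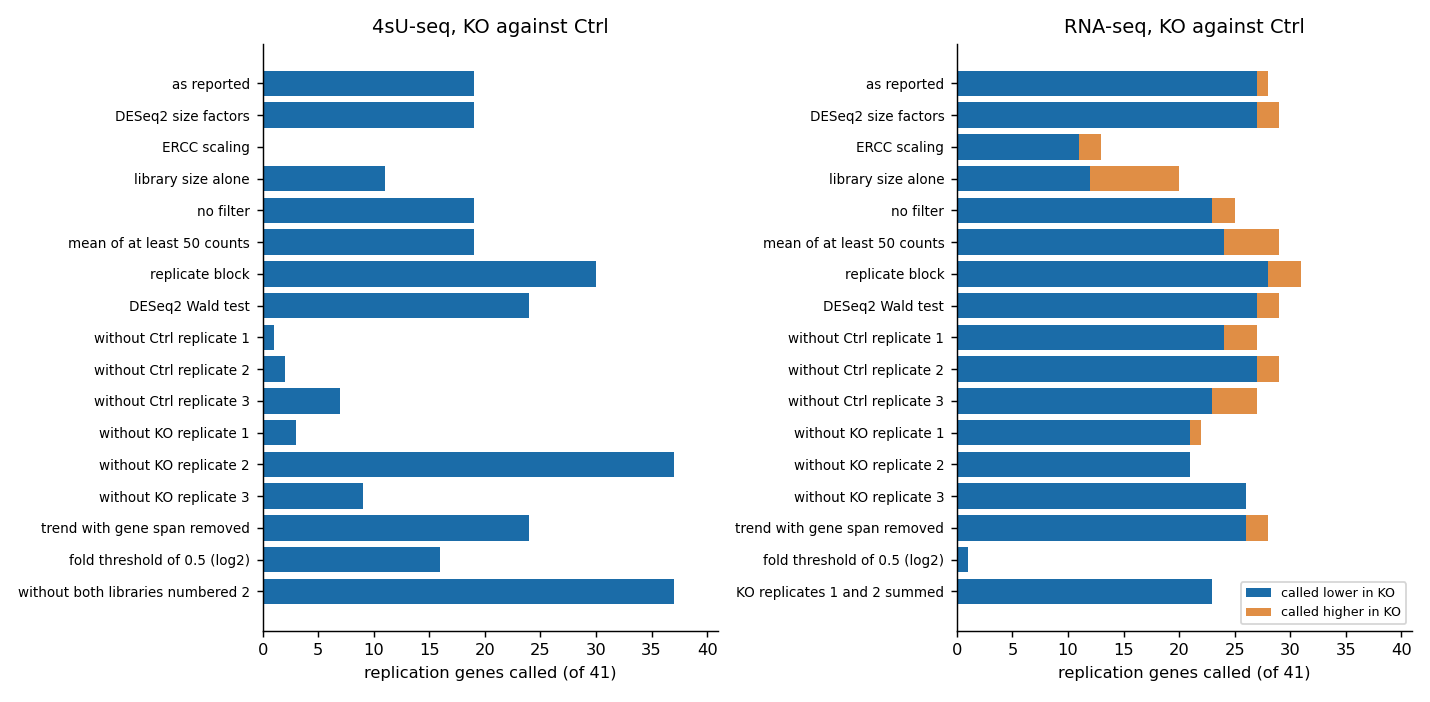
Number of the 41 members called lower (blue) and higher (orange) in KO (x axis) under each way of processing the counts (y axis), for 4sU-seq (left) and RNA-seq (right). The 4sU-seq count runs from 0 with ERCC scaling to 37 without KO replicate 2, and the RNA-seq count from 1, with a fold threshold of 0.5, to 31 with the replicate block. Over all genes, these settings called 716 of 21236 and 11673 of 21686 in 4sU-seq, and 4188 and 10384 of 20415 in RNA-seq.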

How the data were processed

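The authors deposited 1 table of raw gene counts per assay. By the submitters' processing notes, the tools were featureCounts, SAMtools 1.3, HISAT2 2.1.0 and FastQC 0.11.2, and the build was hg38. The annotation, strand setting and treatment of shared reads: not given in the sources used here. Gene coordinates came from GENCODE 29 and promoters from RefSeq.

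Genes were kept by filterByExpr (minimum count 10) and scaled by TMM without the 92 ERCC species. KO was compared with Ctrl by the two-sided quasi-likelihood F test of edgeR 4.0.16 in R 4.3.3, each assay alone, with Benjamini-Hochberg adjustment over all genes tested (threshold 0.05). The difference between assays was the interaction of genotype and assay. Standard errors are the log2 change over the square root of F. The nascent-to-total ratio used CPM plus 0.5. Fits were tested on simulated data. Alternatives included DESeq2 1.42.0 (Wald test and size factors), other scalings, filters, a replicate block and leaving out libraries.

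Values in every library are given for the member with the smallest p in each role and assay and for members called for the difference; ORC1, POLE2 and FEN1 were added after their values were seen. Up to 4 called genes with the smallest p per list and assay could be named from the other lists, and some of those are named. The members, lists and alternatives were chosen with earlier results of these data known. Counting intervals and floors cover counting error only. Figures were drawn with matplotlib 3.10.9 in Python 3.11.15.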

Additional observations from a re-analysis of the deposited data

Results flagged for a closer look

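The knockout change differed between nascent and steady-state RNA by the interaction test in 4 members. The log2 change in 4sU-seq minus that in RNA-seq was −0.69 for ORC6, −0.70 for GINS1, −0.60 for GINS4 and −0.63 for PRIM1. In GINS1 and PRIM1 the steady-state change was above 0 while the nascent change was below 0. No call remained with ERCC scaling, without 4sU-seq Ctrl replicate 1 or 3, or without any 1 of the RNA-seq KO libraries, with the sign the same in each of these.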

How the results depend on the processing

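Every member that could be fitted kept a nascent change below 0 under each alternative but ERCC scaling, where 39 of 41 did. The 19 nascent calls became 0 with ERCC scaling, 11 with library size alone, 37 without both libraries numbered 2, and 1 to 37 when 1 library was left out: 1, 2 and 7 without Ctrl replicates 1, 2 and 3, and 3, 37 and 9 without KO replicates 1, 2 and 3. ERCC scaling gave 716 of 21236 genes at the adjusted threshold and 3307 at an unadjusted p under 0.05. With library size alone 858 of 21236 genes were called lower in 4sU-seq. MCM10 kept its nascent call under all alternatives but ERCC scaling. The 28 RNA-seq calls became 13 with ERCC scaling, 1 with a fold threshold of 0.5 on the log2 scale, and 21 to 29 when 1 library was left out. Over all genes, 4188 of 20415 were called with that fold threshold, and 8145 to 10151 when 1 library was left out. With library size alone MCM4 (0.019), POLD1 (0.0013) and SLBP (0.018) changed sign in RNA-seq. The 4 calls for the difference became 0 with ERCC scaling, 9 with the DESeq2 Wald test and 0 to 29 when 1 library was left out: 0, 1 and 0 without 4sU-seq Ctrl replicates 1 to 3, 1, 29 and 5 without KO replicates 1 to 3, and 3, 2 and 2 without RNA-seq Ctrl replicates 1 to 3, with 0 without each RNA-seq KO library. ERCC scaling left 508 genes at an unadjusted p under 0.05 for the difference. The DESeq2 Wald test called 1060 of 15863 genes for the difference, and leaving out 1 library gave 86 to 4364 genes. The median nascent-to-total ratio in Ctrl was 0.014 to 0.11 when 1 Ctrl replicate was left out, the lowest without replicate 2. The causes of these shifts were not tested. With the replicate number as a block, 30 members were called in 4sU-seq, 31 in RNA-seq and 6 for the difference. The block raised calls over all genes too: 6907 of 21236 in 4sU-seq, 10384 of 20415 in RNA-seq and 657 of 15863 for the difference. Same-numbered deviations from the group means correlated at −0.16, 0.88 and 0.85 in 4sU-seq and −0.06, 0.21 and 0.31 in RNA-seq, so the numbers did not pair every library, and not every library correlated best with its own number. SEs of members ran to 0.30 in 4sU-seq, against at most 0.08 in RNA-seq, though the 4sU-seq libraries were deeper. How far spread and depth each limit the calls was not tested.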
